A study of Mus musculus with 7 samples.

Results

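Wnt antagonists and R-spondins are secreted proteins that lower or raise Wnt signalling outside the cell. The 10 genes described here are Sfrp1, Sfrp2, Sfrp4, Sfrp5, Frzb, Wif1, Dkk2, Dkk3, Rspo1 and Rspo3. They were chosen by their gene symbols, each of which occurs in 1 row of the deposited tables, out of 27998 genes in all. Droplet 3' single-cell RNA sequencing gave counts of unique molecular identifiers (UMIs, 1 per captured RNA molecule) in 7 mouse libraries. Primary myoblasts (1 library, so without a replicate) were sorted muscle satellite cells from hindlimbs of wild-type C56BL/6J mice 3 months old, grown on collagen for 4 to 5 passages in Ham's F10 with 2.5 ng/µl bFGF and 10% horse serum. Injured MuSCs (2 libraries) are muscle stem cells that were isolated by sorting from the muscles the labels call TE-EDL, 60 h after an injury by notexin (2 µM), a snake venom toxin that kills myofibres. Homeostatic MuSCs (2 libraries) were sorted from muscle of the same strain with no injury named. Total muscle (2 libraries) is the unselected sample, with live cells sorted from digested hindlimb muscle of wild-type C56BL/6J mice 3 months old. No label says that the libraries of a group come from separate animals, so the errors and p-values below measure the spread between libraries, which may be technical.

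Secreted Frizzled-related proteins (Sfrp1, Sfrp2, Sfrp4, Sfrp5 and Frzb, also called sFRP3) carry a cysteine-rich domain like that of the Frizzled receptors and bind Wnt ligands before they reach the cell. Wif1 binds Wnt ligands through a domain of its own, and Dkk2 binds the co-receptors Lrp5 and Lrp6. Dkk3 is the divergent dickkopf protein, whose place in Wnt signalling is less settled. R-spondins act the other way: through Lgr receptors they remove the ligases Rnf43 and Znrf3, which otherwise clear Frizzled receptors from the surface. In muscle, Wnt signals are known to act on satellite cells and on the fibro-adipogenic cells that surround the fibres.

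All 10 genes are protein-coding, with coordinates given on GRCm38. Sfrp1 is at chr8:23411502-23449632 (+), Sfrp2 at chr3:83766321-83774316 (+), Sfrp4 at chr13:19623104-19632994 (+), Sfrp5 at chr19:42197971-42202252 (-) and Frzb at chr2:80411970-80447625 (-). Wif1 is at chr10:121033960-121100650 (+), Dkk2 at chr3:132085292-132180304 (+), Dkk3 at chr7:112116017-112159057 (-), Rspo1 at chr4:124986430-125009099 (+) and Rspo3 at chr10:29452416-29535867 (-). Within the last 300 bases of its transcripts, where 3' reads start, no member but Sfrp2 has a near-identical copy. At the 3' end of Sfrp2 the predicted gene Gm26771 lies on the other strand. It held 82 UMIs over all 7 libraries, and reads of both cannot be told apart without the counting strand, which is not given in the sources used here.

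Promoters of 6 members were found in the RefSeq table (GRCm38.p6). Of these, 4 are printed because each belongs to a gene whose level sets a cell type apart in the results that follow: Sfrp2 and Dkk2 for fibro-adipogenic cells, Wif1 for tenocyte cells and Sfrp5 for a small glial-related cluster. Each runs 5′ to 3′ on the gene's strand, from 250 bases before the annotated start to 50 after. They come from chr3:83766071-83766370 (+) for Sfrp2, chr3:132085042-132085341 (+) for Dkk2, chr10:121033754-121034053 (+) for Wif1 and chr19:42202203-42202502 (-) for Sfrp5. Capitals mark TATAAA or its reverse TTTATA, the TATA box letters, and CTTTGA or its reverse TCAAAG, core letters recognised by the Wnt effectors of the TCF family.
Sfrp2: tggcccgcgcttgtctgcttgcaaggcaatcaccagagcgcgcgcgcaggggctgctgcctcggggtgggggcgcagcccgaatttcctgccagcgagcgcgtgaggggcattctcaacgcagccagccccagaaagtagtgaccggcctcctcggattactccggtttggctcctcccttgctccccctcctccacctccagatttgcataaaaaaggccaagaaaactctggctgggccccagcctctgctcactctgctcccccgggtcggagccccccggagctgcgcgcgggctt
Dkk2: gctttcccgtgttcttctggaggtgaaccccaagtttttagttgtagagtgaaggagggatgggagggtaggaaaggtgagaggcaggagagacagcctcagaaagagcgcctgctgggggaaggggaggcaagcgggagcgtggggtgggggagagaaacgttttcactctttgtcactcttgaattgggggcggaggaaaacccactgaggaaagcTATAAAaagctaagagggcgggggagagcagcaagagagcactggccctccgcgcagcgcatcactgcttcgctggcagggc
Wif1: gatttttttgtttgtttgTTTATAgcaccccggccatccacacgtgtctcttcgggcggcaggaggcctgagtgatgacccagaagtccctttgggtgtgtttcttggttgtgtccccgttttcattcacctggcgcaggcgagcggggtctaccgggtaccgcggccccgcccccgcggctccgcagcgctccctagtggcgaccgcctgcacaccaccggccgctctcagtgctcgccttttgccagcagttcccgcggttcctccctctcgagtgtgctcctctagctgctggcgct
Sfrp5: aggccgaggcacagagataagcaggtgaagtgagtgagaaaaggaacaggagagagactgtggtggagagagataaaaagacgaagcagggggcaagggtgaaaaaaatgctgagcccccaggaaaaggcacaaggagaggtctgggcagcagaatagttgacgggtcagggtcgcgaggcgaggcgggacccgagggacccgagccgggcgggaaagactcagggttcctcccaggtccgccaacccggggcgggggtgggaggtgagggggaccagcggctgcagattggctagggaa
Dkk2 holds TATAAA 32 bases before its start, and Wif1 holds TTTATA 232 bases before. The Sfrp2 and Sfrp5 windows hold none of these letters. Of the promoters not printed, that of Frzb holds TCAAAG 95 bases before the start and that of Rspo1 holds none of them. TATAAA on either strand occurs in 13.62% of the 32851 promoters of the table and CTTTGA in 16%. The GC content was 66% for Sfrp2, 57.67% for Dkk2, 63% for Wif1 and 61.33% for Sfrp5.

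Cells with at least 200 genes and at most 10% mitochondrial UMIs were kept: 4414 primary myoblasts, 1256 and 2215 injured MuSCs, 1574 and 1415 homeostatic MuSCs, and 1969 and 2424 total muscle cells, in libraries of 3319283 to 114382567 UMIs. The median depth was 24818 UMIs per primary myoblast, against 2290.5 to 7299.5 in the other libraries. Both injured libraries share 253 cell barcodes, of which 20 are myogenic in both, and no other pair of libraries shares more than 16. Cells were put into classes by lists of marker genes that hold none of the 10 members, so a class was never defined by a gene tested here. In total muscle this gave 1157 fibro-adipogenic cells, 180 tenocyte cells, 41 glial cells, 846 endothelial cells, 61 mural cells, 119 myogenic cells, 92 macrophages or monocytes, 506 B cells, 364 T or NK cells and 97 myofibre cells. A further 27 cells passed the keratinocyte list, but they sit in a cluster led by Krt8, Krt18, Cldn4 and Epcam and are called the keratinocyte-list cells. Of 4393 cells, 896 got no class, 426 of them because they showed 3 or more markers of a second list. The myogenic class took in 55.0% and 48.0% of homeostatic MuSCs, 74.0% and 41.1% of injured MuSCs and 96.5% of primary myoblasts. Most other cells of these libraries got no class. Of 9 classes checked with 4 defining genes outside the lists, 7 had all of them highest in their own class, and the exceptions were fibro-adipogenic (3 of 4) and myogenic (2 of 4). The keratinocyte-list and myofibre classes were not checked in this way.

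The first question was which cells of resting muscle hold each gene. In total muscle, Sfrp2, Sfrp4 and Dkk2 were highest in fibro-adipogenic cells, the connective tissue progenitors of muscle. Wif1 and Dkk3 were highest in tenocyte cells, which form tendon, and Sfrp1, Sfrp5 and Frzb in glial cells, which wrap nerve fibres. The R-spondins had few UMIs in every class. Levels are counts per 1000000 UMIs of the class (CPM), summed over its cells in each library, as mean ± SD over 2 libraries. The B class, which should lack these genes, was taken as a guide to the level of free RNA, which was not measured. It averaged 3.35 ± 0.283 CPM for Sfrp2 and the same for Sfrp4, with the other members between 0 and 1.58 CPM. T or NK cells had 5.81 ± 0.467 CPM of Sfrp4 and 3.87 ± 0.311 CPM of Wif1, but 1.02 ± 1.45 CPM of Sfrp2.

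Sfrp4 had 257 and 234 CPM in fibro-adipogenic cells of total muscle 1 and 2, against 7.67 and 26.6 CPM in tenocyte cells. Sfrp2 had 139 and 133 CPM in fibro-adipogenic cells, against 35.8 and 21.8 CPM in tenocyte cells, the next class in order. Both genes were higher in fibro-adipogenic than in tenocyte cells in each library, without overlap. Dkk2 had 39.0 and 37.7 CPM in fibro-adipogenic cells, against 10.2 and 9.67 CPM in tenocyte cells and 2.09 and 2.21 CPM in endothelial cells. These 3 classes kept that order in both libraries, and no Dkk2 UMI was seen in any other class.

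Wif1 had 3.34 and 1.19 CPM in fibro-adipogenic cells, against 808 and 655 CPM in tenocyte cells. The next class, the keratinocyte-list cells, had 23.9 and 0 CPM, and from there down neighbouring classes overlapped in their order. Dkk3 had 10.4 and 8.91 CPM in fibro-adipogenic cells, against 56.2 and 43.5 CPM in tenocyte cells. Glial cells had 18.7 and 15.8 CPM of Dkk3 from 1 UMI in each library.

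Sfrp1 had 77.6 and 65.3 CPM in fibro-adipogenic cells, against 429 and 252 CPM in glial cells. The classes did not overlap, although the glial values rest on 23 and 16 UMIs in 6 and 3 cells. Sfrp5 had 37.9 and 8.91 CPM in fibro-adipogenic cells, against 691 and 946 CPM in glial cells. In fibro-adipogenic cells its 132 UMIs lay in 6 cells of each library, and its range there overlapped that of the next class. Most of these UMIs lay in gated cells of the glial-related cluster described below, outside which no cell held more than 1 Sfrp5 UMI. With classes from clusters, fibro-adipogenic cells had 1.66 and 1.05 CPM of Sfrp5 in total muscle 1 and 2, from 9 UMIs. Among the classes Frzb was seen in glial cells only, with 1 and 3 UMIs in 4 cells, which is too few to set a level. The other 4 of its 8 UMIs in total muscle lay in cells without a class.

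Both R-spondins were sparse, with 67 UMIs of Rspo1 and 40 of Rspo3 in all of total muscle. Rspo3 had 5.57 and 5.35 CPM in fibro-adipogenic cells, against 1.04 and 1.48 CPM in endothelial cells from 3 UMIs, and no UMI in any other class. Rspo1 had 3.72 and 3.56 CPM in fibro-adipogenic cells. The highest mean among the gated classes was that of the keratinocyte-list cells, with 11.9 and 56.2 CPM from 1 and 8 UMIs, so that their order rests on very few molecules. With classes from clusters, the glial-related cluster described below had 15.1 and 15.7 CPM of Rspo3, from 2 UMIs in 1 cell of each library. Fibro-adipogenic cells then had 4.32 and 4.74 CPM of Rspo3. Rspo1 had 90.5 and 15.7 CPM in the glial-related cluster from 12 and 2 UMIs, against 63.9 and 39.8 CPM in the keratinocyte-list cluster.

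**Figure D1:**
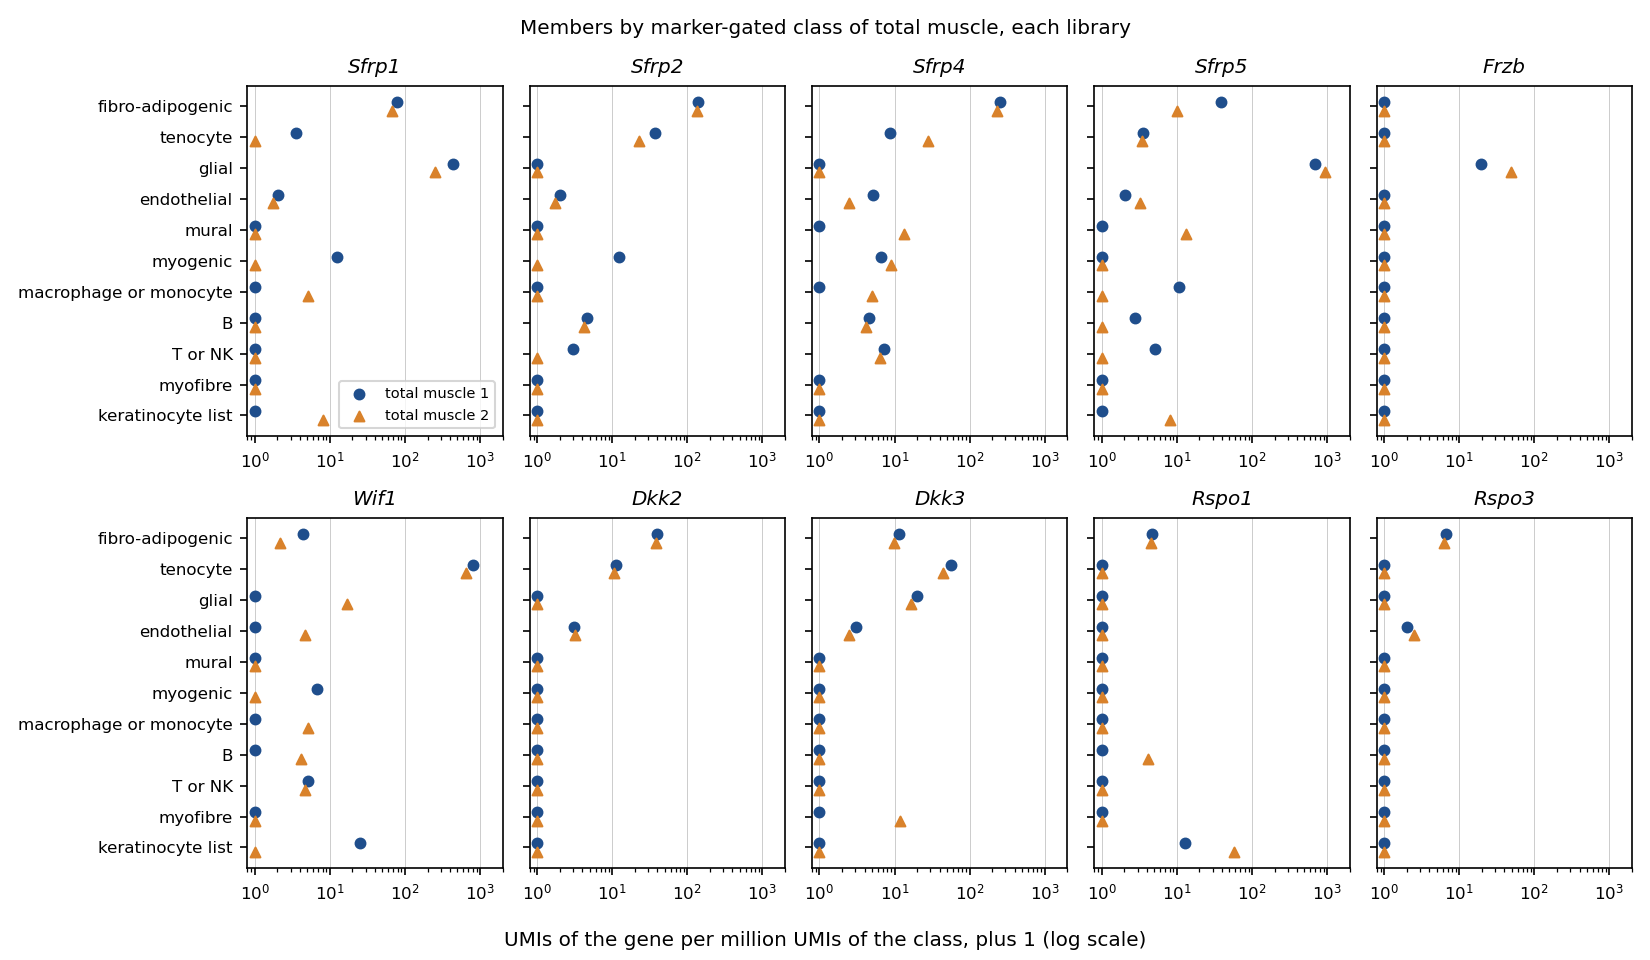
CPM plus 1 of each of the 10 genes, on a log scale, for 11 marker-gated classes of total muscle. Circles are total muscle 1 and triangles total muscle 2. Sfrp4 reads 257 and 234 CPM in fibro-adipogenic cells, Wif1 808 and 655 CPM in tenocyte cells and Sfrp5 691 and 946 CPM in glial cells, each apart from all other classes. A marker at 1 is a count of 0.

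To test these differences, counts were summed by class and library and fitted over all genes with edgeR's quasi-likelihood test, with library as a block and Benjamini-Hochberg adjustment (adjusted p under 0.05). Fold changes are log2 ± SE of fibro-adipogenic over the other class. Against tenocyte cells, 6 of the 10 members had enough counts to be tested, of which 4 were higher, beside 9.73% of all 8123 genes tested, and 2 lower, beside 7.78%. Sfrp1 was higher by 5.71 ± 0.66 (edgeR adjusted p = 1.74e-16), Sfrp4 by 3.85 ± 0.29 (2.53e-37), Sfrp2 by 2.30 ± 0.28 (2.17e-14) and Dkk2 by 1.98 ± 0.50 (7.03e-04). For Sfrp1 the tenocyte class held 1 UMI, in total muscle 1, and the ratio by counts was 57.0 with an interval of 10.2 to 2256. Wif1 was lower, at -8.23 ± 0.23 (edgeR adjusted p = 3.51e-263), as was Dkk3, at -2.29 ± 0.43 (1.67e-06). The median over these 6 members was 2.14, beside 0.05 over all genes tested. Wif1 held 13 UMIs in fibro-adipogenic cells, against 587 in tenocyte cells. Each member had the counts to be tested mainly through the class where it was higher. That left little room for the opposite call, so the split and the median are no result about the members. With DESeq2 the call of Dkk2 was lost (adjusted p = 0.0629). When classes were taken from clusters or the gate had no second-list rule, which puts more cells in the tenocyte class, Sfrp4 was higher by 1.89 and 1.75 and Dkk2 by 1.27 and 1.17, all still past the threshold.

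Against glial cells, 7 members were tested, of which 3 were higher, beside 14.8% of all 8073 genes, and 2 lower, beside 5.54%. The lower members were Sfrp5 at -4.48 ± 0.31 (edgeR adjusted p = 9.95e-33) and Sfrp1 at -1.40 ± 0.32 (1.81e-04). Sfrp5 had the counts to be tested through the glial class, which left little room for a higher call. The 3 higher members had no UMI in glial cells, so they could not have been called lower. Their folds are lower bounds, computed against 3 UMIs over both libraries: at least 9.52-fold for Sfrp4, 5.29-fold for Sfrp2 and 1.49-fold for Dkk2. Wif1, at -1.10 ± 1.77 (edgeR adjusted p = 0.756), and Dkk3, at -0.00295 ± 1.24 (adjusted p = 1), did not pass. The glial class holds 41 cells and 117020 UMIs in all, and sizes moved with its borders: Sfrp5 was at -10.40 with classes from clusters and -2.43 with a looser gate, and at -6.71 from total muscle 2 alone. The -4.48 of Sfrp5 also counts gated fibro-adipogenic cells of the glial-related cluster, which held most of that class's Sfrp5 UMIs. Sfrp1 was at -2.24 with library totals and at -2.46 from total muscle 1 alone. After thinning every cell to 1000 UMIs the call of Sfrp1 was lost (edgeR adjusted p = 0.101), and that of Dkk2 was lost with DESeq2 (adjusted p = 0.0648) and with scaling by library totals (edgeR adjusted p = 0.0538).

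Against endothelial cells, which line vessels, 5 of 6 tested members were higher, beside 25.7% of all genes, and 0 lower, beside 27.2%. Each tested member held at most 6 endothelial UMIs and had the counts to be tested through other classes, which left little room for a lower call. Sfrp2 was higher by 7.12 ± 0.39, Sfrp4 by 6.57 ± 0.30, Sfrp1 by 6.18 ± 0.46 and Dkk2 by 4.15 ± 0.48, each with an edgeR adjusted p of 2.74e-17 or less. Dkk3 was higher by 2.45 ± 0.70 (edgeR adjusted p = 0.00118). Wif1 was near 0 in this comparison, at 0.09 ± 0.77 (edgeR adjusted p = 0.937), with 13 UMIs in fibro-adipogenic and 5 in endothelial cells.

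Against mural cells, which cover small vessels, 4 of 6 tested members were higher, beside 12.9% of all genes, and 0 lower, beside 6.5%. Each tested member held at most 1 mural UMI and had the counts to be tested through other classes. That left no room for a lower call, so the split of higher and lower is no result about the members. Sfrp4 was higher by 5.42 ± 0.71 (edgeR adjusted p = 7.79e-13), with a count ratio of 31.7 (5.68 to 1253) because mural cells held 1 UMI, in total muscle 2. Sfrp1, Sfrp2 and Dkk2 had no UMI in the 61 mural cells, so their folds are at least 3.06, 5.86 and 1.66. The call of Dkk2 was lost with DESeq2 (adjusted p = 0.0707). Dkk3 (edgeR adjusted p = 0.316) and Wif1 (0.681) also had no mural UMI and did not pass.

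Against myogenic cells of the same libraries, 5 of 6 tested members were higher, beside 20.2% of all genes, and 0 lower, beside 13.4%. Each tested member held at most 3 UMIs in these myogenic cells and had the counts to be tested through other classes, which left little room for a lower call. Sfrp4 was higher by 5.25 ± 0.45 (edgeR adjusted p = 3.15e-29), Sfrp2 by 4.96 ± 0.56 (2.58e-17) and Sfrp1 by 4.02 ± 0.65 (1.01e-08). The myogenic UMIs of Sfrp1 and Sfrp2 all lay in total muscle 1, from which alone the values were 2.75 and 3.59. Myogenic cells held no Dkk2 or Dkk3 UMI, so these folds are at least 5.41 and 1.35. The Dkk3 call (edgeR adjusted p = 0.0417) was lost with DESeq2 (adjusted p = 0.0564), with a stricter gate (edgeR adjusted p = 0.121) and with library totals (edgeR adjusted p = 0.0553). Over all genes tested the median log2 fold change was 0.55 against mural, 0.49 against glial and 0.32 against myogenic cells, and the differences above are to be read beside these.

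**Figure D2:**
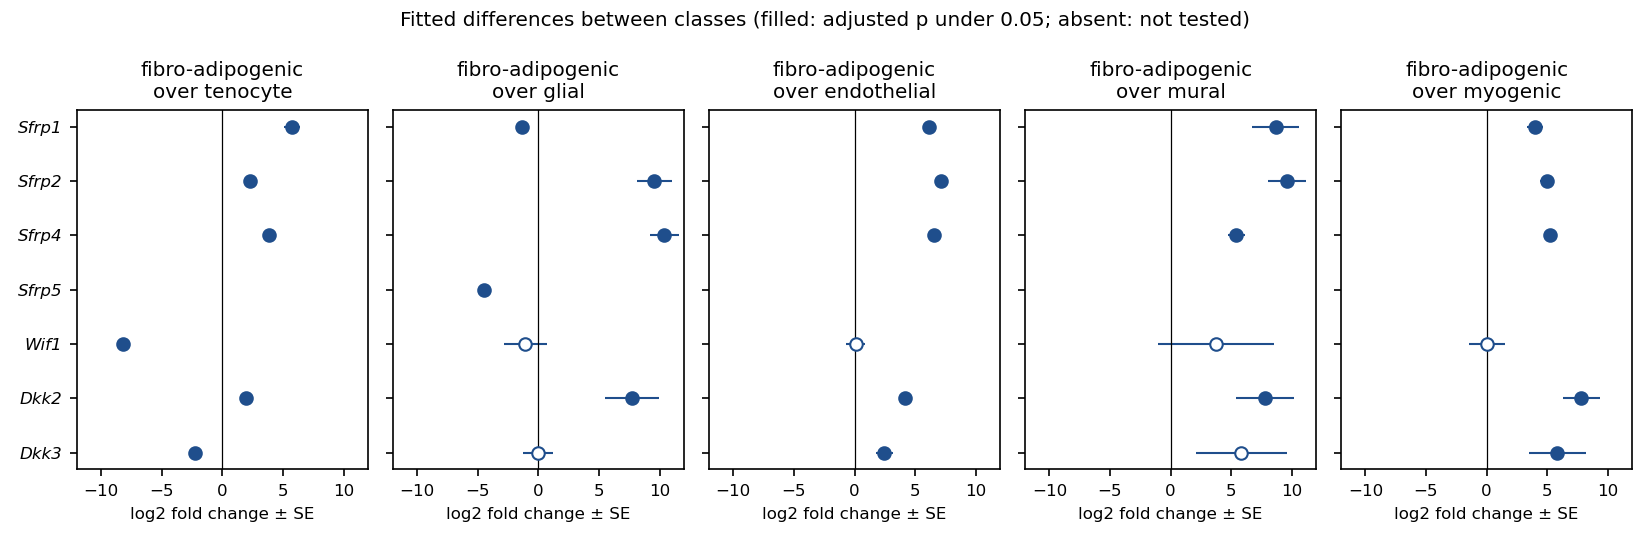
Fitted log2 fold change (points) ± SE (bars) of fibro-adipogenic cells over 5 other classes of total muscle, for the members tested. Filled points passed an edgeR adjusted p of 0.05, and a missing point was not tested. Wif1 stands at -8.23 against tenocyte cells and Sfrp5 at -4.48 against glial cells, while Sfrp2 and Sfrp4 are right of 0 in all 5 panels. The long bars belong to genes with no UMI or few UMIs in the other class.

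Within the fibro-adipogenic class the 3 Frizzled-related proteins were not spread evenly over cells. Sfrp2 had 821 UMIs in 132 of 1157 cells (11.4%), and 42 cells with 5 or more UMIs held 79.8% of them. That share was 79.9% in total muscle 1 and 79.7% in total muscle 2, with up to 73 and 83 UMIs in 1 cell. Sfrp4 had 1479 UMIs in 235 cells (20.3%), and 75 cells held 80.3% of them, with up to 119 UMIs in 1 cell. Sfrp1 behaved otherwise: its 429 UMIs lay in 188 cells (16.2%), of which 21 cells with 5 or more UMIs held 37.3%, and no cell held more than 15. Dkk2 had 232 UMIs in 115 cells (9.94%), with 30.6% in 6 cells. The 58 cells richest in a gene held 86.2% of all Sfrp2 UMIs, 74.4% of Sfrp4, 75.4% of Dkk2 and 62.0% of Sfrp1; the median depth of the class was 4990 UMIs per cell.

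In tenocyte cells Wif1 had 587 UMIs in 73 of 180 cells, which is 41.2% of the cells in total muscle 1 and 40% in total muscle 2. Of these UMIs 89.8% lay in 42 cells with 5 or more. The gate left out many cells of this kind: of all 2031 Wif1 UMIs of total muscle, 1415 (69.7%) lay in cells without a class, whereas the tenocyte cluster, built without the members, held 1987 (97.8%). It has 335 cells in total muscle, 158 of them without a class, and Wif1 had 1260 and 831 CPM there. Dkk3 was thinner in the 180 tenocyte cells of the gate, with 40 UMIs in 27 cells, 11 of them in 1 cell of total muscle 1. Shares of cells with a UMI depend on depth. With every cell thinned to 1000 UMIs, Wif1 was seen in 25.9% and 28.4% of tenocyte cells, against 0% and 0.735% of B cells, whose median depth of 2173.5 UMIs was lower than the 4046.5 of tenocyte cells. Sfrp4 was then seen in 9.27% and 8.77% of fibro-adipogenic cells and Sfrp2 in 5.72% and 5.38%, against 0% and 0.368% of B cells for each. Sfrp1 was seen in 5.33% and 4.46% and Dkk2 in 2.96% and 4% of fibro-adipogenic cells, and no thinned B cell held either gene.

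Among the 3 Frizzled-related proteins, Sfrp2 and Sfrp4 were the pair seen most often in the same fibro-adipogenic cells. Of the 132 cells with Sfrp2, 67 also held Sfrp4 (50.8%), which is 28.5% of the 235 cells with Sfrp4. The libraries differed: the share of Sfrp2 cells with Sfrp4 was 69.6% in total muscle 1 and 36.8% in total muscle 2. Of the 188 cells with Sfrp1, 42 held Sfrp4 (22.3%) and 36 held Sfrp2 (19.1%). Dkk2 was seen in 31.1% of Sfrp2 cells, 19.7% of Sfrp1 cells and 18.3% of Sfrp4 cells. These shares stand beside 20.3% of all cells of the class with Sfrp4, 11.4% with Sfrp2 and 9.94% with Dkk2. Over the class, 62.7% of cells held none of the 3 Frizzled-related genes, 28.3% exactly 1, 7.09% exactly 2 and 1.82% all 3.

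**Figure D3:**
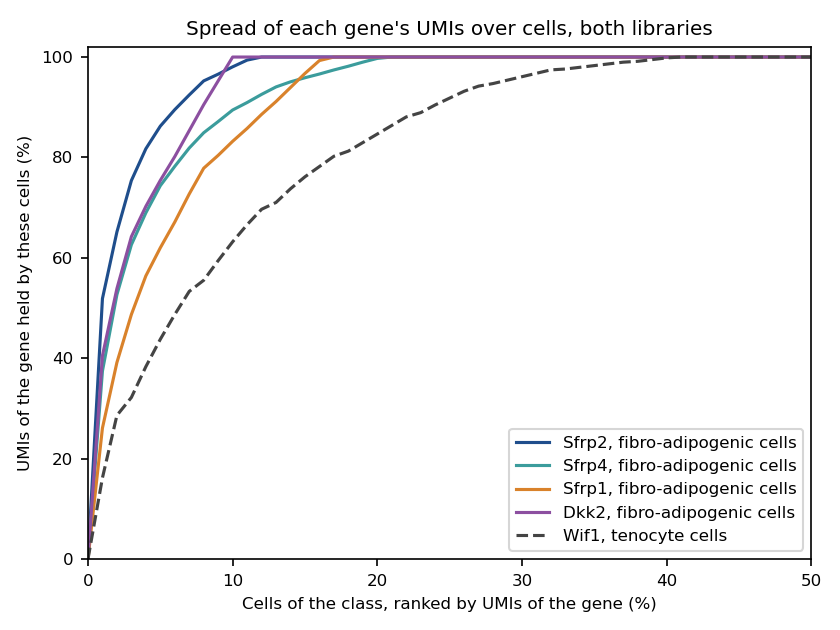
Percent of a gene's UMIs held by the cells richest in it (vertical) against the percent of the class's cells counted, ranked by UMIs of the gene (horizontal), over both total muscle libraries. Solid lines are Sfrp1, Sfrp2, Sfrp4 and Dkk2 in fibro-adipogenic cells and the dashed line is Wif1 in tenocyte cells. At 5% of cells the Sfrp2 line reads 86.2% and the Sfrp1 line 62.0%.

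Fibroblast-like cells of muscle are known to include cells marked by Pi16 and Dpp4 and cells marked by Smoc2 and Cxcl14, and the next comparison asked whether the family differs between them. Cells with more Pi16 and Dpp4 UMIs (168 and 204) were set against cells with more Smoc2 and Cxcl14 UMIs (318 and 415) of the same libraries. A tie of both sums left out 21 and 31 cells, which had 385 and 780 CPM of Sfrp4, more than either side. Sfrp1 was lower on the Pi16/Dpp4 side, and by the count test Sfrp2 and Sfrp4 were higher there. Of 5 members tested 2 were higher, beside 10% of all 8052 genes, and 1 lower, beside 11.4%.

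Sfrp1 had 40.7 and 41.2 CPM on the Pi16/Dpp4 side, against 104 and 83.5 CPM on the Smoc2/Cxcl14 side, a log2 difference of -1.26 ± 0.17 (edgeR adjusted p = 9.09e-12). Both libraries had it lower on the Pi16/Dpp4 side. Sfrp2 had 155 and 226 CPM on the Pi16/Dpp4 side, against 136 and 79.6 CPM on the Smoc2/Cxcl14 side (0.78 ± 0.12, edgeR adjusted p = 4.11e-09). Sfrp4 had 285 and 331 CPM on the Pi16/Dpp4 side, against 231 and 140 CPM on the Smoc2/Cxcl14 side (0.69 ± 0.11, edgeR adjusted p = 3.76e-09). The direction of these genes was the same in both libraries, but the gap was small in total muscle 1 (0.18 for Sfrp2 on the log2 scale) and wide in total muscle 2 (1.51), and with DESeq2 neither call held (adjusted p = 0.981 for Sfrp2 and 0.779 for Sfrp4). Without the second-list rule Sfrp2 was at 0.41 and Sfrp4 at 0.35. On the Smoc2/Cxcl14 side the Sfrp2 UMIs came from few cells, 216 from 18 cells and 162 from 21. Dkk2 (-0.29 ± 0.21, edgeR adjusted p = 0.380) and Dkk3 (-0.49 ± 0.42, edgeR adjusted p = 0.464) did not pass.

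Clusters built without the 10 members divided these cells in another way. The cluster led by Krtdap, Smpd3, Sbsn and Dmkn, with Pi16 and Wnt2 also among its first 10 genes, holds 200 cells, and the cluster led by Smoc2, Inmt, Lum and Mmp3 holds 1060. Sfrp1 had 3.73 and 12.7 CPM in the Pi16 cluster, against 108 and 78.0 CPM in the Smoc2 cluster. Sfrp2 had 205 and 283 CPM in the Pi16 cluster, in 26 and 43 cells, against 175 and 149 CPM in the Smoc2 cluster, in 43 and 46 cells. Sfrp4 ran the other way from the split by 4 genes: it had 194 and 202 CPM in the Pi16 cluster, against 296 and 301 CPM in the Smoc2 cluster. Rspo1 had no UMI in the Pi16 cluster, against 8 and 14 UMIs in the Smoc2 cluster. Rspo3 had 9.33 and 12.7 CPM in the Pi16 cluster, against 3.24 and 2.91 CPM in the Smoc2 cluster. These cluster levels are given without a test.

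**Figure D4:**
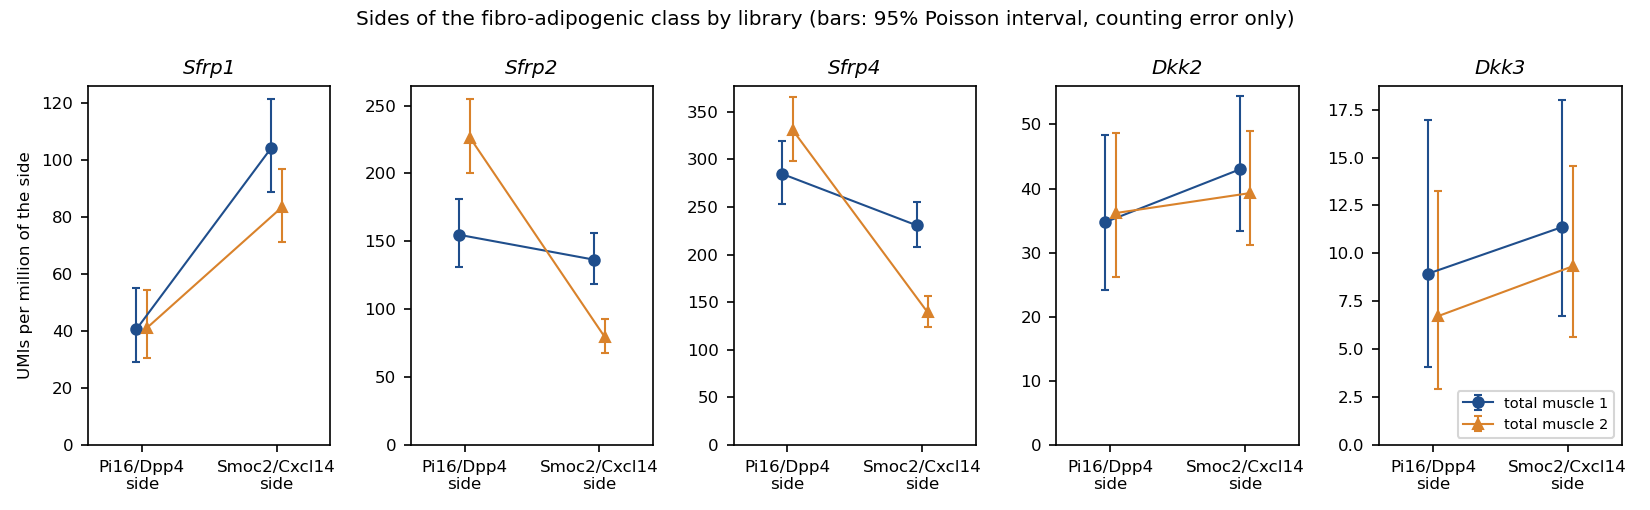
CPM, computed within each side, of 5 members in fibro-adipogenic cells, split by the UMIs of Pi16 and Dpp4 (left in each panel) against Smoc2 and Cxcl14 (right). Lines join the sides of 1 library and bars are 95% Poisson intervals, which cover counting error only. Sfrp1 is at 40.7 and 41.2 on the left and at 104 and 83.5 on the right, whereas the Sfrp2 and Sfrp4 lines differ in slope between the libraries.

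Sfrp5 was carried by a very small set of cells. Of its 860 UMIs in total muscle, 832 (96.7%) lay in 52 cells of a single cluster of 76 cells, whose leading genes besides Sfrp5 include Gatm, Mbp, which encodes a myelin protein, and Kcna1. That cluster was built without Sfrp5. Outside it, 28 cells held 1 UMI each. The cluster holds all 41 cells of the glial class and 35 cells that the gate did not call glial, some of them gated as fibro-adipogenic. The glial cells held 97 of the UMIs in 26 cells, and the other 35 cells held 735 (85.5%) in 26 cells.

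Among these 35 cells Sfrp5 had 560 UMIs in 14 of 20 cells of total muscle 1, up to 223 in 1 cell, and 175 UMIs in 12 of 15 cells of total muscle 2, up to 57 in 1 cell. Its level there was 4915 ± 3067 CPM, against 818 ± 180 CPM in the glial cells (SD, n = 2 libraries). Sfrp1 was 142 ± 21.5 CPM in the 35 cells, against 341 ± 125 CPM in the glial cells. Other members seen in the 35 cells were Rspo1 with 14 UMIs in 7 cells, Dkk3 with 7 UMIs in 6 cells, Rspo3 with 4 UMIs in 2 cells and Frzb with 3 UMIs in 3 cells, against 0, 2, 0 and 4 UMIs in the glial cells. Sfrp2, Sfrp4 and Dkk2 had 1 UMI each in the 35 cells and none in the glial cells. The genes that led in the 35 cells relative to the glial cells were Vtn, Trf, Il33, H19 and Mpzl2, with the receptor Fzd2 and the ligand Wnt6 among the first 10. Since 96.7% of Sfrp5 UMIs come from so few cells, its class means follow where the gate puts those cells.

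The next question was what the myogenic cells themselves hold, and whether injury or culture goes with a change. Myogenic cells of every group held little of the family. The exception was Sfrp1 in primary myoblasts, with 958 UMIs in 752 of 4260 cells, or 8.69 CPM (95% Poisson interval 8.15 to 9.26). Injured MuSCs had 0 Sfrp1 UMIs in 7344807 and 0 in 3505337, which allows up to 0.408 and 0.856 CPM by 3 counts. Homeostatic MuSCs had 4 and 7 UMIs, or 1.65 CPM (0.449 to 4.22) and 3.45 CPM (1.39 to 7.11). Myogenic cells of total muscle had 2 and 0 UMIs in 50 and 69 cells, too few for a level. Intervals and limits of this kind cover counting error only.

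Sfrp4 had 2 UMIs in the 110178956 of primary myoblasts, 0 and 1 in injured MuSCs, 10 and 4 in homeostatic MuSCs and 1 and 2 in myogenic cells of total muscle. In homeostatic MuSCs that is 4.12 CPM (1.98 to 7.57) and 1.97 CPM (0.538 to 5.05), from 3 and 2 cells. Sfrp2 had 45 UMIs in primary myoblasts, 5 and 0 in injured MuSCs, 3 and 0 in homeostatic MuSCs and 2 and 0 in total muscle. That is 0.408 CPM in primary myoblasts, against means of 0.340 CPM in injured and 0.618 CPM in homeostatic MuSCs. Dkk2 had 73 UMIs in 33 primary myoblasts, 1 and 0 in injured MuSCs, 1 and 1 in homeostatic MuSCs and none in total muscle. That is 0.663 CPM in primary myoblasts, against means of 0.0681 CPM in injured and 0.453 CPM in homeostatic MuSCs. Frzb had 64 UMIs in 60 primary myoblasts and none in the myogenic cells of any other library. Rspo1 had no myogenic UMI in any library, and Rspo3, Wif1, Dkk3 and Sfrp5 had 11, 6, 5 and 3 UMIs in primary myoblasts and at most 1 in each other library.

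Between groups, few members had the counts for a test. In injured over homeostatic MuSCs none of the 10 was tested, in a comparison that called 74.3% of all 9677 genes. By counts alone, Sfrp1 was lower in injured MuSCs by at least 8.93-fold, with 0 against 11 UMIs. Sfrp4 was lower there with a homeostatic-over-injured ratio of 34.1 (5.19 to 1442), with 1 against 14 UMIs. In homeostatic MuSCs over myogenic cells of total muscle none was tested either, where 5.67% of genes were called, nor between Myog-positive and Myog-negative injured MuSCs, where 4.89% were. Myog, the factor of committed myoblasts, was seen in 200 and 300 injured cells, against 729 and 610 cells without it. In the single primary myoblast library, where no test is possible, Sfrp1 had 8.17 CPM (7.56 to 8.82) in the 3020 cells with Myog, against 10.1 CPM (9.02 to 11.4) in the 1240 cells without it.

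Primary myoblasts over injured MuSCs had 2 members tested, of which 1 was higher, beside 32.3% of all 11534 genes, and 0 lower, beside 24.9%. Sfrp1 was at least 31.4-fold higher (edgeR adjusted p = 4.07e-07), and Sfrp4 did not pass (-2.75 ± 2.62, edgeR adjusted p = 0.381). Over homeostatic MuSCs, 1 of 2 was higher, beside 38.3%, and 1 lower, beside 31.6%. Sfrp1 was higher by 1.41 ± 0.50 (edgeR adjusted p = 0.0155), which was lost with DESeq2 (1.23, adjusted p = 0.401) and without homeostatic MuSC 1 (0.95, edgeR adjusted p = 0.171). Sfrp4 was lower (edgeR adjusted p = 2.21e-05), with a homeostatic-over-myoblast count ratio of 173 (39.8 to 1569), and this call was lost without either homeostatic library. Sfrp1 had no UMI in injured MuSCs, so it could not have been called lower against them. Sfrp4 held 2 UMIs in primary myoblasts and had the counts to be tested through homeostatic MuSCs. That left little room for a higher call of Sfrp4, so the counts of calls are no result about the members. The single myoblast library was assumed to vary like the sorted ones. Both comparisons share it, so they are not independent of each other.

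Marker lists of other cell types differed between these groups within the myogenic class, not all in the same direction. The 10 genes of the fibro-adipogenic list summed to 7.51 CPM in primary myoblasts (3 of 10 at 0), to 1.63 and 2.28 CPM in injured MuSCs (3 and 5 at 0), to 224 and 214 CPM in homeostatic MuSCs (1 and 4 at 0) and to 120 and 201 CPM in total muscle (3 and 2 at 0). The tenocyte list went the other way, with 13.2 and 12.8 CPM in homeostatic MuSCs, against 80.6 and 124 CPM in injured MuSCs. The mural list had 214 and 153 CPM in homeostatic MuSCs, 27.8 and 37.9 CPM in injured MuSCs and 994 CPM in primary myoblasts. The homeostatic libraries held 0 and 2 gated fibro-adipogenic cells. The myogenic cells' 1.65 and 3.45 CPM of Sfrp1 in the homeostatic libraries lay below the 15.7 and 8.70 CPM of cells outside the class in the same libraries. Of those 709 and 736 cells, 669 and 714 had no class and so need not be of another cell type. Their median depth was 1354 and 1113.5 UMIs, against 2723 and 2965 in the myogenic class. The part of other cell types or free RNA in the Sfrp1 and Sfrp4 counts of homeostatic MuSCs was not tested.

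**Figure D5:**
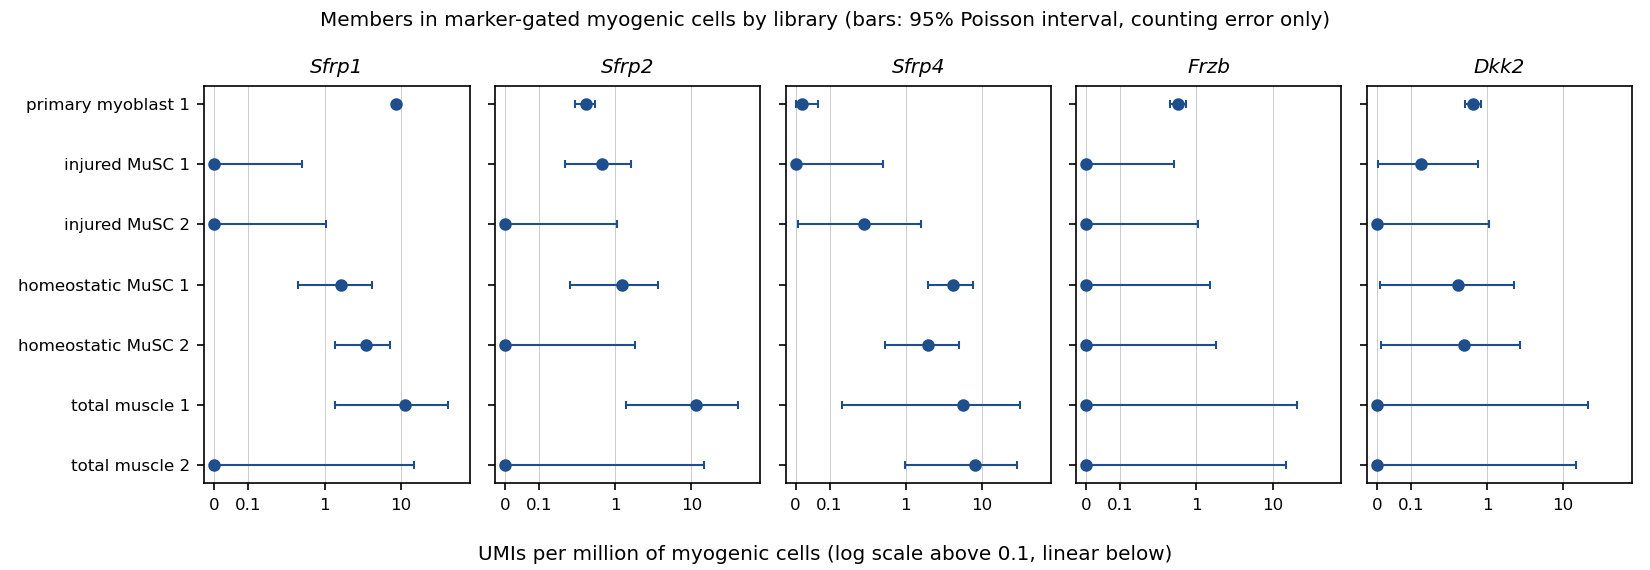
CPM in marker-gated myogenic cells (log above 0.1, linear below) for 5 members in all 7 libraries, with 95% Poisson intervals as bars, which cover counting error only. Sfrp1 is at 8.69 in primary myoblasts, at 0 in both injured libraries and at 1.65 and 3.45 in homeostatic MuSCs. Frzb lies above 0 in primary myoblasts only, at 0.581, and the bars of all other libraries but injured MuSC 1 reach past that level.

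Other genes of the pathway were taken from 5 lists, and the verbs used of them refer to the same edgeR fits. Between fibro-adipogenic and tenocyte cells, 1 of 2 tested Wnt ligands was higher and 0 lower, beside 9.73% and 7.78% of all genes. Wnt2 had 35.3 and 29.4 CPM in fibro-adipogenic cells, against 0 and 0 CPM in tenocyte cells (edgeR adjusted p = 5.29e-08). Without a tenocyte UMI, Wnt2 could not have been called lower. Of 8 tested genes of the beta-catenin list 1 was higher (Tcf7l2, a TCF factor, 1.52 ± 0.33) and 3 were lower. The lower ones were Nkd2, an inhibitor of Dishevelled (-3.85 ± 0.40, edgeR adjusted p = 4.50e-20), Ccnd1, cyclin D1 (-1.18 ± 0.44), and Ctnnb1, beta-catenin itself (-0.61 ± 0.19). Nkd2 had 4.09 and 6.83 CPM in fibro-adipogenic cells, against 99.7 and 72.5 CPM in tenocyte cells, the class with the highest Wif1. None of 7 tested Frizzled and co-receptor genes passed, and no R-spondin receptor had the counts to be tested.

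Against endothelial cells, 5 of 7 tested Frizzled and co-receptor genes were higher in fibro-adipogenic cells, beside 25.7% of all genes, and 2 lower, beside 27.2%. Among the 4 with the highest mean level, Lrp6 (1.35 ± 0.24) and Ryk (1.49 ± 0.31) were higher, and Lrp5 (-2.15 ± 0.30) and Fzd4 (-1.54 ± 0.30) lower. Both tested ligands were higher, Wnt2 by 3.63 ± 0.49 and Wnt11 by 5.26 ± 0.56, and so was Wls, the carrier that exports Wnt proteins (1.96 ± 0.23). Wnt11 had 39.4 and 35.3 CPM in fibro-adipogenic cells, against 1.04 and 0.738 CPM in endothelial cells. It had the counts to be tested through other classes, which left little room for a lower call.

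Between the sides of the fibro-adipogenic class, 2 of 5 tested ligands were higher on the Pi16/Dpp4 side, beside 10% of all genes, and 0 lower, beside 11.4%. Wnt2 had 84.3 and 74.9 CPM on the Pi16/Dpp4 side, against 6.32 and 2.95 CPM on the Smoc2/Cxcl14 side (4.05 ± 0.28, edgeR adjusted p = 4.05e-44). Wnt10b had 8.93 and 10.1 CPM on the Pi16/Dpp4 side, against 0 and 0.982 CPM on the other (edgeR adjusted p = 1.90e-06). Both ligands had the counts to be tested mainly through the Pi16/Dpp4 side, which left little room for a lower call. Of 10 tested Frizzled and co-receptor genes 0 were higher and 3 lower: Ror1 (-1.85 ± 0.48), Lrp5 (-1.60 ± 0.45) and Ryk (-0.63 ± 0.23). Neither of 2 tested R-spondin receptors and ligases passed.

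In myogenic cells most genes differed after injury, and the counts for the pathway are to be read beside the 74.3% called in either direction over all genes. In injured over homeostatic MuSCs, 1 of 9 tested Frizzled and co-receptor genes was higher and 6 lower, a share near that of all genes. Their median was -1.52 on the log2 scale, beside 0.02 over all genes. Ror1 had 0.681 and 1.14 CPM in injured MuSCs, against 45.3 and 35.0 CPM in homeostatic MuSCs (-5.28 ± 0.37, edgeR adjusted p = 3.35e-14). Fzd4 (-3.19 ± 0.40), Lrp6 (-1.96 ± 0.20) and Fzd1 (-1.52 ± 0.34) were lower as well. Of 11 tested genes of the beta-catenin list 4 were higher, with Gsk3b (2.79 ± 0.21), Ccnd1 (1.98 ± 0.19) and Tcf7l2 (1.51 ± 0.20) among them, and 3 lower, which were the Dishevelled genes Dvl2 (-0.92 ± 0.31) and Dvl3 (-3.72 ± 0.59) and the TCF factor Tcf7l1 (-1.63 ± 0.47). Ctnnb1 did not pass (-0.35 ± 0.16, edgeR adjusted p = 0.0543). Axin2, a feedback target of Wnt signalling singled out after its values were seen, had 11.2 and 12.3 CPM in injured MuSCs, against 0.412 and 0.493 CPM in homeostatic MuSCs (4.84 ± 0.58, edgeR adjusted p = 9.29e-09). The ligand Wnt10a had 9.67 and 9.70 CPM in injured MuSCs and no UMI in homeostatic MuSCs, while Wnt4 was lower (-2.38 ± 0.44). Znrf3, the ligase that R-spondins remove, was higher (1.27 ± 0.23), and Kremen1, a dickkopf receptor, lower (-2.63 ± 0.25).

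In primary myoblasts over injured MuSCs, where 32.3% of all genes were higher and 24.9% lower, both tested R-spondin receptors and ligases were lower: Znrf3 by -3.19 ± 0.25 and Lgr4 by -3.69 ± 0.34. Lgr4 had 2.29 CPM in primary myoblasts, against 12.9 and 25.7 CPM in injured MuSCs. Of 4 tested ligands 2 were higher and 1 lower, with Wnt7b at 39.7 CPM in primary myoblasts, against 1.09 and 1.71 CPM in injured MuSCs (4.24 ± 0.35), and Wnt10a at 0.172 CPM, against 9.67 and 9.70 CPM (-6.46 ± 0.51). Axin2 was 0.200 CPM in primary myoblasts, against 11.2 and 12.3 CPM in injured MuSCs (-6.51 ± 0.46, edgeR adjusted p = 1.12e-11).

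Genes whose levels followed a member most closely were ranked by Pearson's r of log2(CPM + 1) over 20 points, which are 10 classes in each of 2 libraries. The points share libraries and differ in depth, so r is a description. Sfrp4 was followed by Ptges (0.928), Pla1a (0.853) and Mmp3 (0.852). Sfrp1 was followed by Cyp2j9 (0.919), Mme (0.919) and Pcdh9 (0.898). Wif1 was followed by Chad (0.916), which is in the tenocyte gate list, Scube2 (0.901) and Fam159b (0.896). Sfrp5 was followed by Gldn (0.917), Slc36a2 (0.897) and Fmn2 (0.895).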

How the data were processed

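The UMI counts of each gene in each cell were used as deposited by the authors, with no normalization. Per the submitters' processing notes, bcl2fastq 2.17.1, Cell Ranger 2.2.0 and Seurat 2.3.4 were used with mm10. Cells with fewer than 200 genes or over 10% mitochondrial UMIs were left out. A cell was put in a class if it showed at least 3 of at most 10 markers of a list, 2 more than of any other, and fewer than 3 of any second list. In total muscle, cells with 5% of UMIs from myofibre genes were set aside first, as were cells with 20% from haemoglobin genes in every library. The markers Ighm, Ighd, Iglc2 and Trbc2 were not used. The 10 members and all lists were chosen with earlier results of these data known.

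Counts were summed by class and library and tested with edgeR 4.0.16 in R 4.3.3 (quasi-likelihood test, TMM scaling, filterByExpr, Benjamini-Hochberg adjustment over all genes tested, threshold 0.05). The SE is the absolute log2 difference over the square root of F. Comparisons within total muscle or within injured MuSCs had library as a block, and all classes with at least 50 cells shared 1 fit. The glial comparison used a minimum of 40 cells, chosen after the data were seen. Comparisons between groups had no block, since deviations of libraries with the same number were not related (r from -0.0586 to 0.0192 over 6586 genes). DESeq2 1.42.0, other gates, cell filters, scalings and thinning were alternatives. Clusters (2000 variable genes without the members, 30 components, 20 neighbours, resolution 1) were made with scanpy 1.11.5 and leidenalg 0.10.2 in Python 3.11.15. Doublets were kept, and cells with high doublet scores (1.035% to 3.534% per library) were left out as an alternative. Named are all 10 members, up to 4 passing genes per pathway list with the highest mean level, and 3 genes most like each of 4 members. Bounds for a group without counts use 3 UMIs over the group and leave out the counting error of the group with counts. Intervals are exact at 95%. Some leading genes of clusters are not reported here. The fitting steps were tested on simulated data.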

Additional observations from a re-analysis of the deposited data

Results flagged for a closer look

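Some members were seen in cells that entered no comparison. In total muscle 1 and 2, cells without a class had 236.59 and 60.035 CPM of Sfrp5 and 12.638 and 3.6021 CPM of Rspo1, above 9 classes of the same library. The Rspo1 value of total muscle 2 came from 9 UMIs (95% Poisson interval 1.65 to 6.84). It was not apart from the 3.56 CPM (1.84 to 6.23) of fibro-adipogenic cells there. Sfrp5 was below its level in glial cells in both libraries, and Rspo1 was below its level in the keratinocyte-list cells in total muscle 2. The values from the other libraries that follow lay above those of the myogenic class, without overlap of the 95% Poisson intervals, which cover counting error only. Cells outside the myogenic class there were mostly cells without a class, which need not be of another cell type. In the primary myoblast library, cells outside the myogenic class had 13.146 CPM of Sfrp1 from 54 UMIs, 17.284 CPM of Dkk2 from 71 UMIs in 9 cells and 0.97376 CPM of Dkk3 from 4 UMIs. In injured MuSC 1 and 2, cells outside the myogenic class had 24.516 and 5.244 CPM of Sfrp2, from 44 UMIs in 8 cells and 19 UMIs in 13 cells. In homeostatic MuSC 1 the cells outside the myogenic class had 15.747 CPM of Sfrp1 from 19 UMIs, and in homeostatic MuSC 1 and 2 they had 10.774 and 11.859 CPM of Sfrp5, from 13 and 15 UMIs.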

How the results depend on the processing

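With every cell thinned to 1000 UMIs, fewer members were called. Of primary myoblasts over injured MuSCs 0 were higher (1 with all UMIs), over homeostatic MuSCs 0 higher and 0 lower (1 and 1). In fibro-adipogenic cells 1 was higher and 1 lower against tenocyte cells (4 and 2), 1 higher against each of endothelial (5), mural (4) and myogenic cells (5), 1 higher and 1 lower against glial cells (3 and 2), and 1 higher on the Pi16/Dpp4 side (2). Thinning leaves fewer UMIs to test. In injured over homeostatic MuSCs 1 member was called lower with a looser gate, 2 with clusters and 2 without the low-count filter, against 0. Of primary myoblasts over homeostatic MuSCs 0 were higher with DESeq2 and 0 lower in GC-rich barcodes, against 1 each. On the Pi16/Dpp4 side 1 was higher with clusters and 0 with DESeq2, against 2, and 2 were lower with a looser gate, without the second-list rule and without the low-count filter, against 1. The cause of these changes was not tested.

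Leaving out 1 library at a time gave 0 to 1 members higher and 0 to 1 lower in primary myoblasts over homeostatic MuSCs, 1 higher and 0 lower over injured MuSCs, and 0 in the remaining group comparisons. The Sfrp4 difference over injured MuSCs ranged from -4.32 without injured MuSC 1 to 2.40 without injured MuSC 2. With only 1 total muscle library no spread is left to test against. Wif1 and Dkk3 values near 0 changed sign without passing: Wif1 against endothelial cells was -0.021 with library totals, against mural cells -0.26 with DESeq2, and against myogenic cells -0.45 with a looser gate, -0.49 with a stricter one and -0.13 with library totals. Against glial cells Wif1 was 0.38 with clusters and 2.54 thinned, and Dkk3 was 0.14 with a looser gate, 0.083 without the second-list rule, 0.003 without shared barcodes and 0.023 without the low-count filter. Across all single-member values, 477 counted as the same, 14 lost the call, 2 gained it and 12 changed sign. A tested value counted as the same if it kept its direction and call. A value from 1 total muscle library alone, which has no test, did so if its size moved by less than the spread of the 2 libraries' values. The other 29 values, each from 1 total muscle library alone, moved in size.

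The labels' library numbers do not pair the libraries of different groups. With the number as a replicate block, Sfrp1 in primary myoblasts was 11.1 over injured and 1.99 over homeostatic MuSCs on the log2 scale, and the counts of members called stayed at 1 higher and 0 lower over injured MuSCs and 1 and 1 over homeostatic MuSCs. Without the block, the comparisons within total muscle gave the same counts of members called. The gate without the second-list rule was added after seeing the data. Frzb, Rspo1 and Rspo3 had too few UMIs for any comparison to test.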

Other observations

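In the primary myoblast library 32 cells fell into the cluster that holds the glial cells of total muscle, although they held no Sfrp5 UMI in 942751. Their leading genes were Bgn, Timp3, Igfbp7 and Col1a2, genes of the extracellular matrix and its regulation. They held 79 Dkk2 UMIs in 8 cells, or 83.8 CPM (95% Poisson interval 66.3 to 104), and 22 Sfrp1 UMIs in 12 cells, or 23.3 CPM (14.6 to 35.3). In the whole myogenic class of the library, Dkk2 had 73 UMIs in 33 of 4260 cells. The intervals cover counting error only.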
